A study of Mus musculus with 5 samples.

Results

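The 8 genes described here, Actb, Hprt, Ppia, Tbp, Ywhaz, Gusb, Rpl13a and Polr2a, are in common use as reference genes when RNA levels in brain are measured by quantitative PCR. They were listed by name, with no rule on their values, from the 47729 genes of a table of read counts. Earlier results of these data were known when the list was made. All 8 passed the filter on low counts and were among the 14770 genes tested. RNA-seq was made from right hemispheres of the brain of male C57BL/6 mice aged 5 months (C57BL/6 is an inbred strain), in 5 libraries. The labels give 1 group and no treatment. The data therefore show how far each gene differed between libraries with the same tissue label and at what level it stood. The labels do not state that each of the 5 samples is a separate animal, so the libraries are called library 1 to 5 in accession order, and every p-value refers to the spread among libraries, part or all of which may be technical.

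Library depth ran from 13184234 to 15570064 counts. Values are given as CPM, a gene's counts scaled by the library's own total, or as RPKM, which further divides by the gene's length in kilobases. Marker lists of neurons (4985 to 5318 CPM summed over 5 genes), astrocytes (5773 to 6063 CPM over 6 genes) and oligodendrocytes (5152 to 6397 CPM over 6 genes) were present in every library, and no gene of these lists was at 0. Of 3 listed genes of the cerebellum, 2 stood out in library 4. Gabra6 had 4.11 CPM there and at most 0.075 elsewhere, and Pcp2 had 1.61 and at most 0.30. Calb2, also listed, was highest in library 2 (94.6 CPM against 83.6 in library 4). Whether the tissue taken differed between libraries was not tested. In bulk RNA, fewer cells of a type and less RNA per cell cannot be told apart.

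A reference gene is used to divide out differences in the amount of RNA between samples. It serves that purpose when its own transcript varies little and when the assay reads that transcript and no other. Genes that every cell needs were adopted for this role, and many of them have processed pseudogenes, which are copies of their spliced mRNA inserted elsewhere in the genome. Such copies matter for sequencing as well as for PCR, since a short read from a shared stretch fits more than 1 place.

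The 8 genes differed widely in how much of their sequence is their own, which bears on every level given below. Of the coding part of the principal transcript, 99.3% of the 50-base words of Ppia (443 of 446) occurred on the same strand in annotated transcripts of genes at other loci. For Ywhaz the share was 93.5% (644 of 689), for Rpl13a 39.1% (220 of 563) and for Actb 19.6% (212 of 1079). No such word was found for Hprt, Tbp, Gusb or Polr2a. The 3′ untranslated parts of Ppia, Ywhaz and Rpl13a shared no word, and that of Actb shared 8.52%. Over all annotated transcripts of each gene, Rpl13a (44.3%), Ywhaz (23.9%) and Ppia (23.2%) shared at least 20% and their counts are uncertain, while Actb shared 11.3%, Tbp 0.113% and Hprt, Gusb and Polr2a 0.0%.

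**Figure D1:**
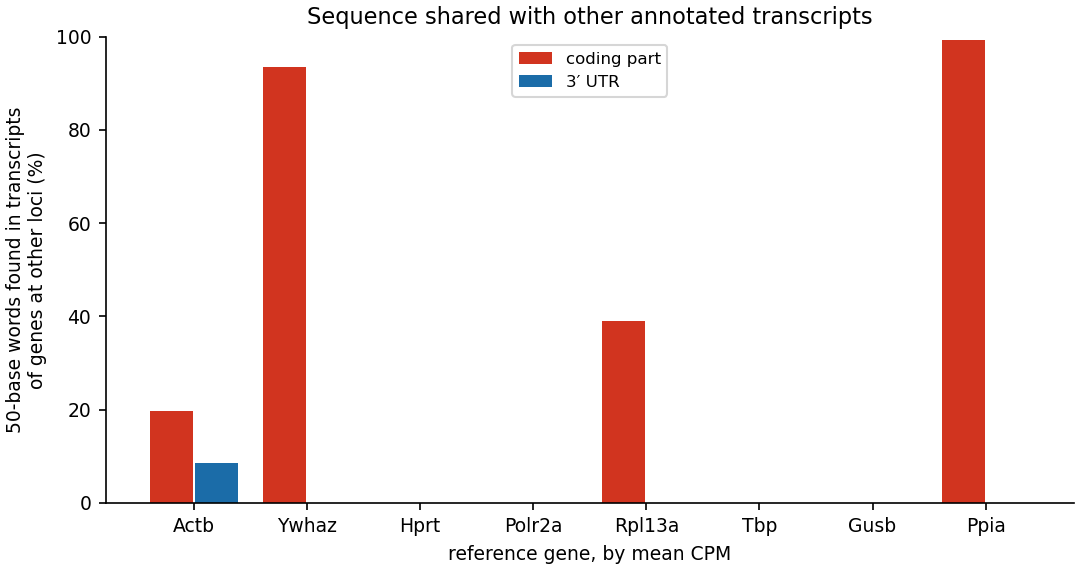
Percentage of 50-base words of the principal transcript that occur in annotated transcripts of genes at other loci, for the coding part and the 3′ untranslated part of each reference gene, with genes ordered by mean CPM. Ppia and Ywhaz shared nearly all of their coding words (99.3% and 93.5%) and none of their 3′ untranslated words.

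Ppia, which encodes the prolyl isomerase cyclophilin A, had the most copies. In the GENCODE annotation of build GRCm38, 57 pseudogenes on 19 chromosomes aligned to at least 50% of its coding sequence at an identity of 80% to 100%. Of these, 42 were in the count table, 9 of them with a count of 0 in every library, and together they held 28 to 52 counts per library. Gm10123 (ENSMUSG00000062933, chromosome 9, 96895658 to 96896147) matched without a mismatch over 490 aligned bases and had 0 counts in every library. The stretch below, bases 372 to 431 of the Ppia coding sequence, is shown because a read of this length could not be placed in 1 of the first 3 genes alone. Capitals mark bases of a copy that differ from Ppia.
Ppia: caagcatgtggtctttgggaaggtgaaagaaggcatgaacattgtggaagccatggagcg
Gm10123: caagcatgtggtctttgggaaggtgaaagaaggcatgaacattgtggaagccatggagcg
Gm13493: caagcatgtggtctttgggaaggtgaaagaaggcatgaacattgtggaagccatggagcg
Gm9234: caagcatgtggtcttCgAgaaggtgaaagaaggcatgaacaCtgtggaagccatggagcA
Gm13493 (chromosome 2, 51871126 to 51871618) differs from Ppia at 4 of 493 aligned bases, none of them here, and Gm9234 (chromosome 7, 121015142 to 121015633) at 9 of 492, with 4 in this stretch. The 2 pseudogenes with the most reads were Gm5967 (9.2 counts on average) and Gm6069 (3.4 counts). The protein-coding gene Gclm, which encodes a subunit of the enzyme that starts glutathione synthesis, also held 206 of the Ppia words in its annotated transcripts and had 794 counts on average. An alignment in the opposite direction placed the Ppia coding sequence in Gm17494, a noncoding transcript with 62.2 counts on average.

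Rpl13a, a protein of the large ribosomal subunit, had 8 annotated pseudogenes at these limits, of which 1 carried many reads. Gm11478 (ENSMUSG00000083992, chromosome 11, 86630428 to 86631026) had 213, 278, 239, 269 and 222 counts in libraries 1 to 5. Rpl13a itself had 1339, 1462, 1379, 1636 and 1299, so the copy was lower in every library. Gm11478 had 98.0% identity to the Rpl13a coding sequence. Rpl13a also lies on the same strand as Gm45713 (chromosome 7, 45125922 to 45136231), an annotated coding gene with 42.0% of its exon bases inside exons of Rpl13a and 28.8 counts on average. With Gm45713 included, 97.5% of the coding words of Rpl13a were shared. The small nucleolar RNAs Snord32a, Snord34 and Snord35a, in introns of Rpl13a, and Snord33, inside an annotated exon, had 1.8 to 6.8 counts on average, and Mir5121 was listed at 0.

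Ywhaz, the zeta member of the adaptor family that binds phosphorylated proteins, had 1 pseudogene at these limits. Gm4202 (ENSMUSG00000091421, chromosome 3, 92689426 to 92690158) aligned over 733 bases with no mismatched base (99.9% identity, which also counts gaps) and had 11, 8, 15, 7 and 7 counts. Bases 2 to 61 of the coding sequence are shown for both.
Ywhaz: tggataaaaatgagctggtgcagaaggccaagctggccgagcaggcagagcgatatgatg
Gm4202: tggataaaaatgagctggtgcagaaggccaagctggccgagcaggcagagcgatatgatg
Actb, cytoplasmic beta-actin, had 15 annotated pseudogenes with 80.4% to 91.8% identity, whose summed counts were 4 to 10 per library. Lrrc58 (chromosome 16, 37868389 to 37888858) held 179 of the Actb words and had 1036 counts on average. The sister gene Actg1, cytoplasmic gamma-actin, shared 57.3% of its words and stood at 13.2 counts, under the filter on low counts. With that share its counts are uncertain, and its true level cannot be told from them.

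Tbp, the TATA-binding protein that positions transcription complexes at promoters, shared almost no words but overlaps another gene. All exon bases of Pdcd2 (chromosome 17, 15519208 to 15527301), on the opposite strand, lie inside annotated exons of Tbp, and Pdcd2 was listed at 0 in all 5 libraries. The strand setting of the counting is not given in the sources used here, and without strand the reads of the overlapping genes cannot be told apart.

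Actb (ENSMUSG00000029580, chromosome 5, 142903115 to 142906754) had the highest level of the 8 genes per length. Its values in libraries 1 to 5 were 331, 317, 300.2, 304 and 324 RPKM, a mean of 315 ± 13.1 (SD, n = 5, as for all values after ±). Libraries 1 and 5 were highest and library 3 lowest.

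With the lengths implied by the deposited RPKM, Hprt, Ywhaz and Rpl13a came next, though the place of Rpl13a depends on its length. Hprt (ENSMUSG00000025630, chromosome X, 52988137 to 53021659), a purine salvage enzyme, had 101.7, 104.8, 105.7, 106.7 and 101.3 RPKM, a mean of 104 ± 2.41. Ywhaz (ENSMUSG00000022285, chromosome 15, 36770770 to 36796929) had 98.7, 97.4, 104, 99.0 and 93.5 RPKM, a mean of 98.5 ± 3.79. Rpl13a (ENSMUSG00000074129, chromosome 7, 45125558 to 45128761) had 97.7, 95.9, 94.8, 103 and 96.2 RPKM, a mean of 97.5 ± 3.06. The ranges of these 3 genes overlapped. Hprt was higher than Ywhaz in all 5 libraries by a log2 ratio of 0.079 ± 0.043, whereas Ywhaz was higher than Rpl13a in 3 of 5 (log2 ratio 0.015 ± 0.074, exact two-sided sign-flip p = 0.8125, also after adjustment over 7 pairs), so the last pair did not differ beyond its spread with these lengths. The length used for Rpl13a was 1024 bases, whereas the union of its annotated exons is 2114 bases. With exon unions Rpl13a stood at 47.2 ± 1.48 RPKM against 95.7 ± 3.68 for Ywhaz, a log2 ratio of 1.02, and with principal transcripts that ratio was 0.33. These figures divide the same counts by another length. Whether reads over all 2114 bases were counted is not known, so the value with exon unions may be too low.

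Polr2a (ENSMUSG00000005198, chromosome 11, 69733997 to 69758637), the largest subunit of RNA polymerase II, lay below Rpl13a by a log2 ratio of 2.61 ± 0.11 (1.57 with exon unions). Its values were 15.4, 17.2, 16.4, 15.6 and 14.7 RPKM, a mean of 15.9 ± 0.969, with library 2 highest and library 5 lowest. Gusb (ENSMUSG00000025534, chromosome 5, 129989011 to 130003049), the lysosomal enzyme beta-glucuronidase, had 3.47, 3.59, 3.55, 3.56 and 3.47 RPKM, a mean of 3.53 ± 0.0555. The highest of these values was 1.04-fold the lowest, the narrowest range of the 8 genes.

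Ppia and Tbp had the lowest values, though the counts of Ppia are uncertain, since 99.3% of its coding words are shared. Ppia (ENSMUSG00000071866, chromosome 11, 6415443 to 6419817) had 101, 112, 80, 116 and 95 counts, or 2.15, 2.15, 1.61, 2.12 and 2.05 RPKM, a mean of 2.02 ± 0.232. Library 3 stood apart below the other libraries. Tbp (ENSMUSG00000014767, chromosome 17, 15499888 to 15528379) had 1.65, 1.95, 1.68, 1.93 and 1.95 RPKM, a mean of 1.83 ± 0.155, with libraries 1 and 3 low and the others alike. Ppia was higher than Tbp in 4 of 5 libraries (log2 ratio 0.13 ± 0.16, exact p = 0.125, adjusted 0.146), so the order of this pair is not settled. The other 5 of the 7 neighbouring pairs held 1 order in all libraries, each with an exact p of 0.063 (0.0875 adjusted over the 7 pairs). That is the smallest exact p that 5 libraries allow, so no pair could pass 0.05.

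The place of the low genes also rests on the length by which counts were divided. The length implied by the deposited RPKM was 13399 bases for Tbp, 3508 for Ppia and 4548 for Gusb, close to or at the union of all annotated exons, while the principal transcripts have 1891, 1170 and 2687 bases. With the principal length, chosen after the data were seen, Tbp stood at 12.98 ± 1.10 RPKM, above Ppia (6.04 ± 0.697) and Gusb (5.97 ± 0.0939). Ywhaz (120 ± 4.61) then stood above Hprt, whose length did not change. Actb, at 440 ± 18.2, kept the first place. Values with the principal length divide all counts of a gene by it, including any reads outside that transcript, so they may be too high. This concerns Tbp most, with 1891 of 13399 bases. The counts of Tbp may also hold reads of Pdcd2, as the strand setting is not given.

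Spread between libraries was measured as the SD of log2 CPM and ranked among the 200 genes nearest in mean log2 CPM. A rank of 0 means that none of these genes had a smaller SD, and all genes tested have a median rank of 50. Gusb had an SD of 0.022 and a rank of 0.0, Hprt 0.033 and 12.5, and Rpl13a 0.045 and 19.5, so 3 of the 8 genes spread less than the median of their neighbours. The other 5 spread more, with ranks of 58.0 for Ywhaz (SD 0.055), 58.5 for Ppia (0.18), 63.5 for Actb (0.060), 75.5 for Tbp (0.12) and 79.0 for Polr2a (0.087). Without library 3, Actb (45.5), Ywhaz (26) and Ppia (0.0) fell below the median of their neighbours, which made 6 of 8, and without library 5 Ywhaz did (45.5). Leaving out 1 library moved the rank of Rpl13a between 1.0 (without library 4) and 39.5 (without library 1), that of Hprt between 12.5 and 20 and that of Gusb between 0.0 and 1.0, so these 3 stayed below the median each time.

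**Figure D2:**
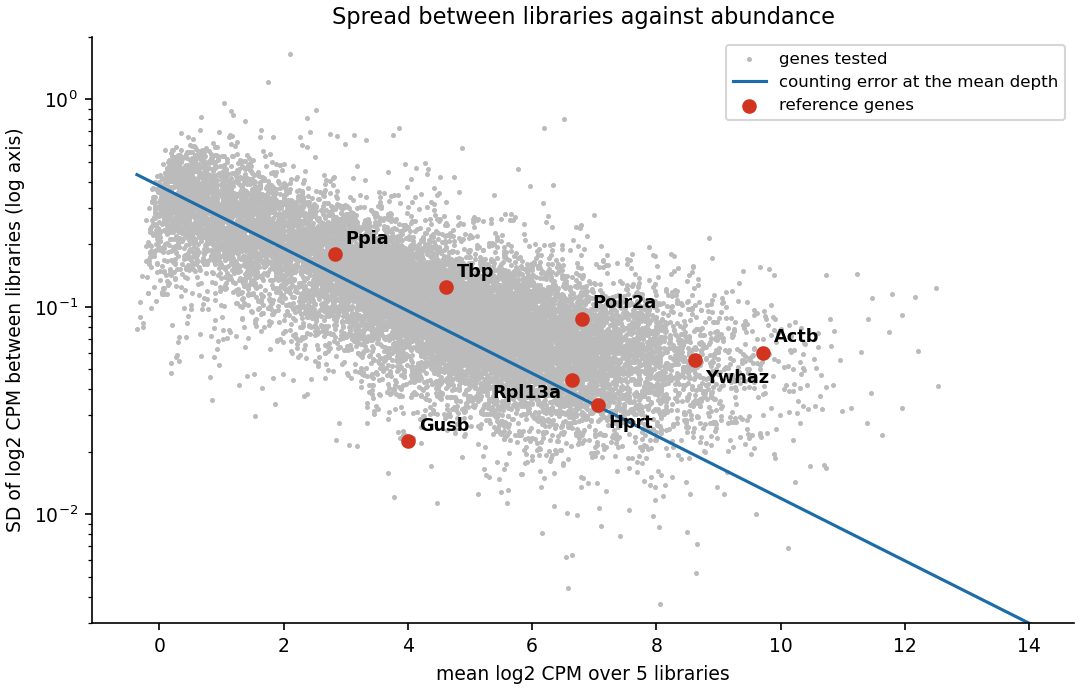
SD of log2 CPM between the 5 libraries (log axis) against mean log2 CPM for the 14770 genes tested (grey) and the 8 reference genes (red), with the SD that counting error alone would give at the mean depth (blue line). Gusb lies far below the line, Hprt on it, and Actb and Polr2a above it.

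Counting error sets a floor for several of these ranks. For Hprt, counting alone gives an SD of 0.033, equal to the SD observed, and for Rpl13a 0.038 of 0.045. For Ppia, with 101 counts on average, it gives 0.14 of 0.18, and for Tbp 0.078 of 0.12. Gusb, with 211, 243, 229, 252 and 208 counts, had an SD (0.022) below its counting error of 0.096. Of all genes tested, 31.7% had an SD below their counting error, as did 35.5% of the 200 neighbours of Gusb, and the rank of Gusb is below what counting alone would give. For Actb and Ywhaz counting gives 0.013 and 0.019, or 4.83% and 12.2% of the variance observed.

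None of the 8 genes passed the test for a spread above the trend of genes of like abundance. In edgeR's quasi-likelihood fit, 0 of 8 passed an adjusted p of 0.05 for a larger spread and 0 at an unadjusted p of 0.05, against 0.305% of all genes tested (45 of 14770) and 5.43% unadjusted. The largest ratio of a reference gene's quasi-dispersion to the trend was 1.55-fold, for Polr2a (adjusted p = 0.995 with edgeR, n = 5). DESeq2 marked 0 of the 8 as dispersion outliers (0.684% of all genes) and limma on RPKM called 0. For a smaller spread, 0 of 8 passed adjustment, as did 0.0% of all genes. Gusb alone passed without adjustment (edgeR adjusted p = 0.749), as did 5.0% of all genes. A p that misses the threshold does not show that a gene is steady.

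The direction of the differences was not shared by the 8 genes. Compared with its own geometric mean, Actb stood 4.96% higher in library 1 and at -4.71% in library 3, where Ywhaz stood 5.68% higher. Polr2a had 8.81% in library 2 and -7.12% in library 5. Tbp had -9.93% in library 1 and -7.94% in library 3, and between 5.71% and 6.89% in the others. Rpl13a had its high value, 5.32%, in library 4. Ppia had -19.8% in library 3 and between 2.51% and 7.34% elsewhere.

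**Figure D3:**
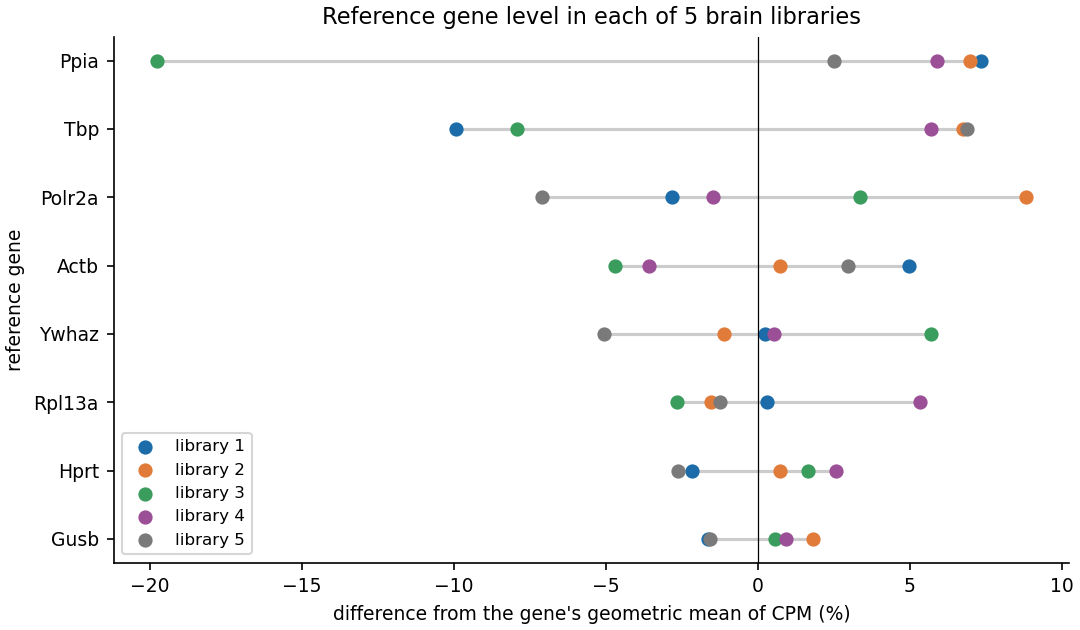
Difference of each library's CPM from the gene's geometric mean over the 5 libraries, in percent, for the 8 reference genes ordered by SD. Points are libraries and grey lines join the lowest to the highest. Gusb spans 1.04-fold and Ppia 1.34-fold, with library 3 apart at -19.8%.

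Lists of markers moved in the same libraries for some of these genes. The mean log2 deviation of 7 long RNAs that stay in the nucleus, one measure of RNA quality, was highest in library 2 (0.20), where Polr2a was highest too, and lowest in library 4 (-0.10), with 2430 to 3039 CPM summed and none of the 7 at 0. The oligodendrocyte list was highest in library 4 (0.18), as Rpl13a was, and between -0.077 and -0.013 in the others. Library 4 was also highest for the lists of inhibitory neurons (0.089), astrocytes (0.089), microglia (0.052), oligodendrocyte precursors (0.029) and endothelial cells (0.024). Hprt was highest there too (2.56%), so the match of Rpl13a with 1 list is not particular. In library 3, where Ppia, Actb and Rpl13a were lowest, the 5 erythroid genes had a mean log2 deviation of 0.87 (53.1 to 201 CPM summed, 3.79-fold, none at 0) and the 8 glucocorticoid-linked genes 0.48 (349 to 642 CPM, none at 0). The glucocorticoid-linked genes were nearly as high in library 5 (0.42), where the erythroid genes were lowest (-1.01) and Actb and Ppia stood above their means (2.96% and 2.51%). The part of these differences in the values of the reference genes was not tested.

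Ratios between reference genes do not depend on library totals, and their spread is one measure used to select reference genes for qPCR. For each of the 28 pairs the SD of the log2 ratio of counts was taken over the libraries. Gusb with Hprt had the smallest SD, 0.018, and their ratio ranged 1.03-fold. That SD is below the counting error of either gene (0.096 for Gusb and 0.033 for Hprt). It therefore does not show that this pair is steadier than the others. Ppia with Ywhaz had the largest, 0.22 (1.43-fold). The mean SD of a gene's 7 ratios was 0.081 for Gusb, 0.084 for Hprt, 0.091 for Rpl13a, 0.11 for Ywhaz and for Actb, 0.12 for Polr2a, 0.14 for Tbp and 0.18 for Ppia. When the gene with the largest mean was removed step by step, Ppia went first, then Tbp, Actb, Polr2a, Ywhaz and Rpl13a, which left Gusb and Hprt. Counting alone gives an SD of 0.14 for Ppia and 0.078 for Tbp, so this order does not separate steadiness from read number. The mean over all 8 genes was 0.11, and 0.079 without library 3.

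**Figure D4:**
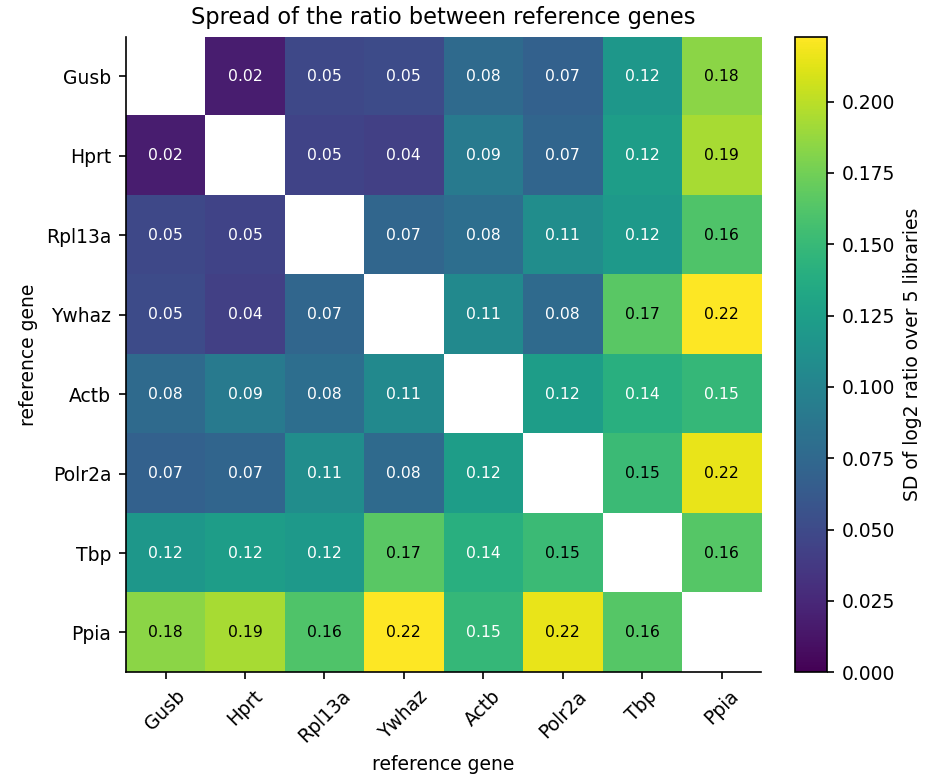
SD over the 5 libraries of the log2 ratio of counts for each pair of reference genes, by colour and number, with genes ordered by their mean SD. The pair Gusb and Hprt has the smallest value (0.018, below the counting error of either gene) and pairs with Ppia the largest, up to 0.22.

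Each gene was also taken as the sole scaling factor for all genes tested. With each library's own total, the median SD of log2 values over all genes was 0.101. With Gusb as the factor it was 0.103, with Hprt 0.107, Rpl13a 0.111, Actb 0.119, Ywhaz 0.119 and Polr2a 0.133, and it was 0.157 with Tbp and 0.203 with Ppia. Division by Ppia alone would thus have set library 3 apart from library 1 by 1.34-fold in every gene. For Ppia, counting alone gives an SD of 0.14 of the 0.18 observed, and its counts are uncertain because of shared sequence. The geometric mean of all 8 genes ranged 1.06-fold between libraries and gave a median SD of 0.105, no lower than Gusb alone. The Gusb value rests on 229 counts on average, whose SD (0.022) was below their counting error (0.096). It therefore does not show that Gusb scales as well as the 8 genes together. The order of the single genes nearly restates that of their SD of log2 CPM and is no separate support.

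Other genes in use as references were placed on the same scale. Of 38 listed, 37 were matched and tested, and 21 of them spread less than the median of their neighbours (median rank 36). Only Gapdh, the glycolytic enzyme, was called for a larger spread (1 of 37, against 0.305% of all genes, edgeR adjusted p = 0.0444). It had 15.3, 12.2, 15.2, 12.03 and 9.76 RPKM, and 47.8% of its words are shared with other genes, so its counts are uncertain. Library 5 was lowest and libraries 1 and 3 highest. The call was lost without library 1 (edgeR adjusted p = 0.124), library 3 (0.122) or library 5 (0.302). It was also lost with scaling by each library's own total (0.0639), with a prior that was not robust (0.122) and with limma (0.628), while DESeq2 marked Gapdh as a dispersion outlier. Tfrc, the transferrin receptor (rank 98.0), and B2m, the light chain of MHC class I (97), also ranked high without a call (edgeR adjusted p = 0.911 and 0.595). The lowest ranks belonged to Oaz1, an inhibitor of polyamine synthesis (4.0, with 36.4% of its words shared, so its counts are uncertain), the proteasome subunit Psmb4 (4.0) and Reep5, a protein that shapes the endoplasmic reticulum (5.0). Reep5 had 143, 142, 144, 148 and 145 RPKM and shares none of its words.

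**Figure D5:**
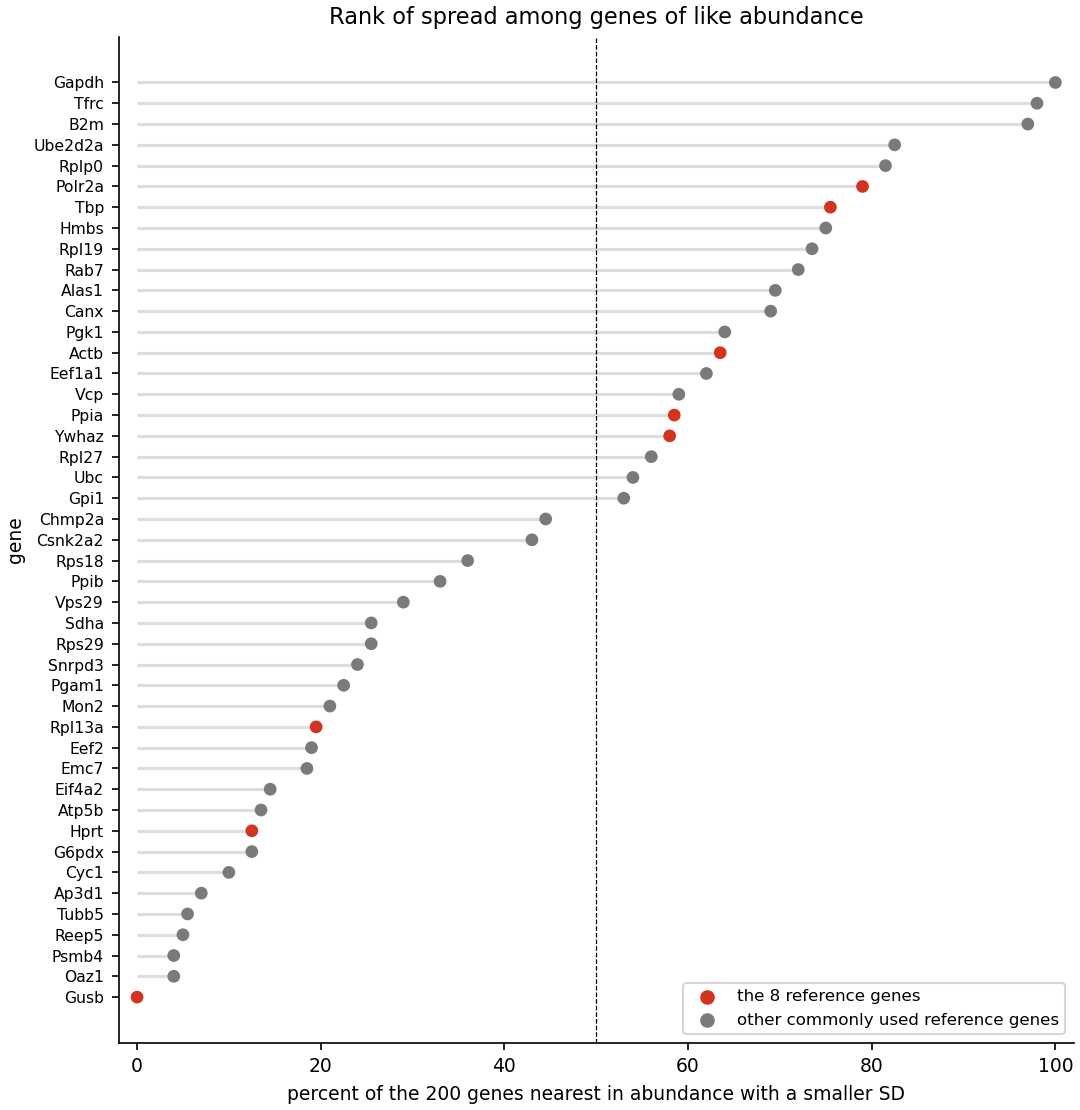
Percent of the 200 genes nearest in abundance that have a smaller SD of log2 CPM, for the 8 reference genes (red) and 37 other genes in use as references (grey); the dashed line marks 50. Gusb ranks lowest at 0.0 and Gapdh highest at 100.

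Lists of the relatives of each reference gene, each with that gene among its members, held no gene called by edgeR in either direction. Of all genes tested, 0.305% were called for a larger spread and 0.0% for a smaller one. The absence of calls is near those shares and is no trait of these lists. Their median SD of log2 CPM is given beside 0.10 for all genes tested, with the median rank, since the SD is smaller for genes with more counts. Among genes of actin filaments (10 of 13 tested, median SD 0.062, median rank 56.75), Actr1a of the dynactin complex ranked lowest (34.5) and smooth muscle Acta2 highest (97). In the family of Ywhaz (7 tested, 0.055, median rank 45), ranks ran from 27.5 for Ywhae to 66.5 for Ywhaq. As counted, Ywhaz (98.5 RPKM) stood below Ywhae (336 ± 8.98), Ywhag (249 ± 7.28) and Ywhab (197 ± 7.66), and those 3 share at most 0.228% of their words. The counts of Ywhaz are uncertain, since 93.5% of its coding words are shared, so its true place among these relatives cannot be told.

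The counts of Ppia are uncertain, since 99.3% of its coding words are shared, so its true place among its relatives cannot be told. As counted, Ppia stood below the other cyclophilins and prolyl isomerases that share under 20% of their words, except Ppic. Examples are Ppib of the endoplasmic reticulum (20.4 ± 1.22 RPKM) and Fkbp1a (87.5 ± 3.38). In this list of 16 (median SD 0.092, median rank 54.75), mitochondrial Ppif ranked lowest (5.5) and Ppil4 highest (92.0). Of the RNA polymerase II genes (13 tested, median SD 0.087, median rank 44.0), Polr2j had the lowest rank (4.0) and Polr2f the highest (94.0), and the second-largest subunit, Polr2b, stood at 19.8 ± 0.575 RPKM beside 15.9 for Polr2a, with a rank of 19.5. For Tbp and its partners (18 of 20 tested, 0.081, median rank 37.5), Taf11 ranked 7.0 and Taf5 79.5. Of the purine salvage genes (13 of 15 tested, 0.076, median rank 35.5), Nt5c2 ranked 6.0 and Impdh1 93.5, and of 20 lysosomal hydrolases (0.081, median rank 38.75), Gusb ranked lowest and Gaa highest (89.0).

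Shared sequence is common among the genes of the large ribosomal subunit, Rpl13a included. Of 43 tested (46 listed), 36 share at least 20% of their words, with 5.51 RPKM as their median. The median was 9.66 RPKM in the remaining 7, and Rpl13a, at 97.5 RPKM, stood above both. The counts of the 36 genes, Rpl13a among them, are uncertain, and so is this comparison. Ranks in this list ran from 4.5 for Rpl27a to 97 for Rplp2, with a median SD of 0.11 and a median rank of 45.5.

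The genes most like each reference gene were found by the root mean square difference of log2 deviations over the 5 libraries, among genes of at least 10 CPM that share under 20% of their words. They were Prkcd (0.0063) and Ppp1ca (0.0097) for Actb, Vhl (0.0043) and Tmem65 (0.0053) for Hprt, and Frs2 (0.0054) and Heatr1 (0.0056) for Gusb. For Ywhaz they were Pdxk (0.0092) and Prrg3 (0.011), for Rpl13a Guk1 (0.0087) and Rab2a (0.0088), and for Polr2a Bbs9 (0.0064) and Macf1 (0.0088). The nearest to Tbp were Oprk1 (0.012) and Mettl14 (0.019), and to Ppia Klf3 (0.039) and Gnpda2 (0.043). The median difference over all candidates (9709 or 9710 genes) lay between 0.072 for Gusb and 0.17 for Ppia. These names are a description of 5 libraries, with no test.

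The deposited RPKM values spread the reference genes further than the counts do. That table takes the 5 library totals in turn down its rows, so most of its values were scaled with a total that is not their own. Gusb ranged 1.28-fold there against 1.04-fold in CPM, Hprt 1.32-fold against 1.05-fold, and Ywhaz 1.48-fold against 1.11-fold. Polr2a was the exception, with 1.14-fold against 1.17-fold. On the deposited values the ranks among genes of like abundance became 65.0 for Hprt, 93.0 for Ywhaz, 28 for Gusb and 11 for Polr2a.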

How the data were processed

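The submitters' processing notes list featureCounts 1.4.6-p4, STAR 2.4.1d and CASAVA 1.7, and the build GRCm38, without their roles. Not given in the sources used here: annotation release, strand setting, and how reads with several matches were treated. The authors deposited whole-number counts per Ensembl gene, not normalized, and RPKM made from them. With the 5 library totals recycled in turn down the table, 99.999% of 117232 nonzero RPKM values came out as deposited (within 0.0011 RPKM plus 0.0002 of the value), against 21.2% with own totals. RPKM were therefore recomputed from counts, own totals and the lengths so recovered. Libraries differed beyond counting noise in all pairs (chi-square per degree of freedom 2.28 to 3.89). The labels name no molecular identifiers, so depth gives counting error only.

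Symbols and positions came from GENCODE M21 on GRCm38 (47310 of 47729 IDs matched). Log2 CPM used 0.5 added counts. The count fit (R 4.3.3, edgeR 4.0.16) had an intercept only, with filterByExpr, TMM and a robust quasi-likelihood prior, and each quasi-dispersion was compared with its abundance trend by a one-sided F test for each tail (Benjamini-Hochberg adjusted, threshold 0.05). DESeq2 1.42.0 and limma 3.58.1 were alternatives. The fit was tested on simulated data. Levels were compared by exact two-sided sign-flip tests over 32 patterns on log2(RPKM + 0.1). Words of 50 bases were compared with all annotated transcripts on the same strand, and copies were found with blastn 2.17.0. No genome sequence was used, so copies outside the annotation were not looked for. The rule for named genes took all 8 reference genes, the called and the extreme members of each list, 2 genes most like each, up to 2 copies with the most reads, and overlapping genes. Others named (Gm10123, Gm13493, Gm9234, Gclm, Lrrc58, Gm17494, Gm4202, Actg1, Ppib, Fkbp1a, Polr2b, Ywhag, Ywhab) were chosen after their values were seen. Rn18s and Pnp were not matched. The members and lists were chosen with earlier results of these data known. One sequence comparison is not reported here.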

Additional observations from a re-analysis of the deposited data

Results flagged for a closer look

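Ppia had 1 library far from the others. In library 3 its log2 CPM was 2.50, and the gap to the next library took 0.842 of the whole range, above Dixon's 95% limit for 5 samples. The value rests on 80 counts against 95 to 116 in the other libraries. Of the 8 genes looked at, 1 was set apart in this way, and chance sets apart about 5% of groups.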

How the results depend on the processing

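No paired analysis was possible because the series has a single group. No reference gene was called under any of the 11 alternatives to the variability test (lowest adjusted p for a larger spread 0.915, edgeR or limma). The number of all genes called was 45, and it was 10 by limma on recomputed RPKM, 19 with a prior that was not robust, 101 by DESeq2's dispersion outliers and 249 when low counts were kept. Without 1 library it ran from 18 (library 5) to 44, with 26 without library 3. The number of reference genes below the median spread of their neighbours was 3 under every other scaling, filter, added count and number of neighbours tried (on deposited RPKM with Polr2a in place of Hprt), and without 1 library ran from 3 to 6 (library 3). The number of neighbouring pairs with 1 order in all libraries was 4 to 6 under all alternatives. With the length of the principal transcript, added after the data were seen, the log2 ratio was -0.20 for Hprt over Ywhaz, -0.010 for Gusb over Ppia and -1.09 for Ppia over Tbp, all reversed. That of Ywhaz over Rpl13a ran from -0.014 (without library 3, reversed) to 0.032 without 1 library, and was 1.02 with the union of annotated exons and 0.33 with the principal transcript. The mean SD of log2 ratios between reference genes was 0.16 on deposited RPKM, and ran from 0.079 (library 3) to 0.12 without 1 library. The cause of these shifts was not tested, beyond the lengths and totals that define them. Depth limits Ppia, Gusb and Tbp most, at 101 to 350 counts per library on average.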
